A study of Mus musculus with 48 samples.

Results

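Proteins that are secreted or sent to the cell surface are folded in the endoplasmic reticulum (ER), and the data here are the transcript levels of 10 genes that carry out or control that folding. The genes were Hspa5, Hsp90b1, Calr, Sdf2l1, Dnajb9, Dnajb11, Pdia3, Pdia4, Pdia6 and Xbp1, found by their Entrez identifiers among 24996 genes in a count table of mouse epidermis. All 10 passed the filter on low counts, as did 18044 genes in all. The set was chosen by gene name, with earlier results of these data known. Total RNA was sequenced from suspensions of epidermal cells from adult mice, between 18 and 25 weeks of age, and from aged mice, between 80 and 90 weeks. Skin was sampled 6 times over the day, at Zeitgeber time (ZT, counted in hours from lights on) 0, 4, 8, 12, 16 and 20, with 4 libraries for each age and time, 48 in all and 24 per age. The labels name no treatment or genotype for either age, and the sources used here give no strain or sex. Whether the 4 replicates are different animals is not stated either, so p-values reflect only how much these samples vary, which may be technical. Among the aged ZT20 libraries, replicates 1 and 2 stand apart from replicates 3 and 4 with low levels of most of these genes, and results that rest on them are given with and without that pair.

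As background, Hspa5 (also called BiP) is the HSP70 of the ER, where it binds unfolded chains with the help of J-domain partners such as Dnajb9 and Dnajb11. Hsp90b1 is the ER member of the HSP90 family, Calr (calreticulin) is a calcium-buffering chaperone for glycoproteins, and Pdia3, Pdia4 and Pdia6 are disulfide isomerases, of which Pdia3 works with calreticulin. When unfolded protein builds up, the unfolded protein response raises many of these genes through the factors ATF6 and XBP1, the latter made active by splicing of its mRNA. Keratinocytes of the epidermis make surface adhesion proteins and secrete enzymes of the skin barrier, which pass through this compartment.

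The promoters are shown first because the ER stress response element (ERSE), a sequence to which ATF6 is known to bind together with NF-Y, is a feature that several of these genes share. The search was for CCAAT and CCACG with 9 bases of any kind between them, on both strands of the RefSeq promoters of GRCm38.p6, each from 250 bases before to 50 bases after an annotated start. It was found in 39 of 32851 promoters, or 0.119%, and among them were those of Hspa5, Hsp90b1, Calr and Pdia6. The shorter ERSE-II, ATTGG and CCACG with 1 base of any kind between them, was found in 12 promoters, or 0.0365%, one of which was that of Dnajb11. The 5 sequences below run 5′ to 3′ on the strand of the gene and hold the 250 bases before the start, and for Dnajb11 the next 20 bases as well. Capitals mark the matches to either element.
Hspa5, chr2:34771840-34772089, plus strand: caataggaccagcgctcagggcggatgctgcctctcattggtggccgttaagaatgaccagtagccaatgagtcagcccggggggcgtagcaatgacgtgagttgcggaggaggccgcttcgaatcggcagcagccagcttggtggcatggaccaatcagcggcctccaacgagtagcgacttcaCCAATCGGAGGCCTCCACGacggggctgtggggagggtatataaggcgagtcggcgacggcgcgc
Hsp90b1, chr10:86705445-86705694, minus strand: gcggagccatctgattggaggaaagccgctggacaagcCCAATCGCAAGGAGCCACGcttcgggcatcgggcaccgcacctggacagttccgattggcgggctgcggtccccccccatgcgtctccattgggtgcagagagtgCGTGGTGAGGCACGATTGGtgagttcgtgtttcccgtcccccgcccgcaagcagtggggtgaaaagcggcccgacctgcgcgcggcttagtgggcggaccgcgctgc
Calr, chr8:84846932-84847181, minus strand: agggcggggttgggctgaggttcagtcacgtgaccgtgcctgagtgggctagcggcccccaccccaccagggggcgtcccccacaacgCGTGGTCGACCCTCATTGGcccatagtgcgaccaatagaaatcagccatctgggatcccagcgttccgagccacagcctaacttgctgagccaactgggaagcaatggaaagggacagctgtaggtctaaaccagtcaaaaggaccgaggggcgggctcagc
Pdia6, chr12:17266339-17266588, plus strand: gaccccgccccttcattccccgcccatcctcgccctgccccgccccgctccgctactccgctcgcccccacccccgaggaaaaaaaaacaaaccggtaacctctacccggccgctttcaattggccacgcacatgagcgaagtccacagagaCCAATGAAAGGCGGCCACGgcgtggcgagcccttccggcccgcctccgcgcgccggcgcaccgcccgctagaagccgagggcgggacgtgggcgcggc
Dnajb11, chr16:22857595-22857864, plus strand: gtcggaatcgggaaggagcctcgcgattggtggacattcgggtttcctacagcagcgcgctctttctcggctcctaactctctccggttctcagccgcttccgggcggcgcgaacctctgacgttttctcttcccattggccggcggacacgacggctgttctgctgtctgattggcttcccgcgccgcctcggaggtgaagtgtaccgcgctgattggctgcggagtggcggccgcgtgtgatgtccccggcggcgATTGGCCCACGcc

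The match in Hspa5 lay 65 to 47 bases before the start and that in Pdia6 98 to 80 bases before it. Hsp90b1 held 2 matches, 1 on the strand of the gene 212 to 194 bases before the start and 1 on the opposite strand 107 to 89 bases before it. The match in Calr was on the opposite strand, 162 to 144 bases before the start, and the ERSE-II of Dnajb11 lay 8 to 18 bases after it. None of the 10 promoters held TGACGTGG, the core of the element that XBP1 is known to bind, which was found in 0.676% of promoters. The E-box CACGTG, a motif that the clock factors BMAL1 and CLOCK are known to bind, was found in the promoters of Calr and Dnajb9 and in 7.15% of all promoters; its letters do not overlap the other matches. A match describes letters only, and the absence of a match says only that these letters are not in this window.

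**Figure D1:**
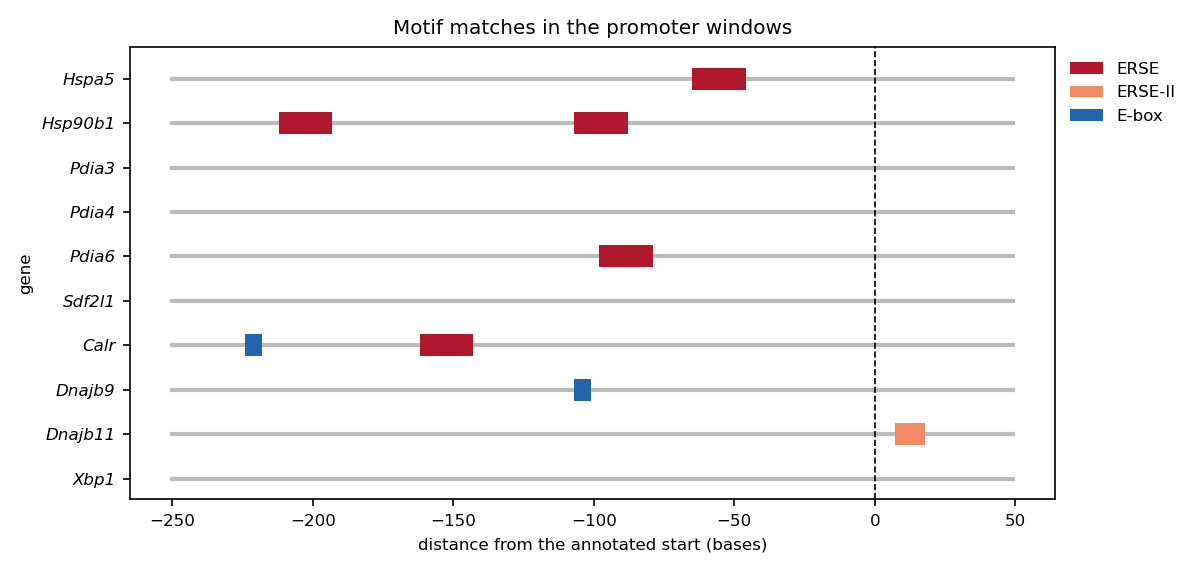
Positions of motif matches in the promoters of the 10 genes, 1 row per gene, with the distance from the annotated start in bases on the x axis and the 300-base window as a grey bar. Red boxes are ERSE, orange ERSE-II and blue the E-box; ERSE boxes are seen in Hspa5, Hsp90b1, Pdia6 and Calr, and those of Hspa5 and Pdia6 lie within 98 bases of the start.

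Sdf2l1 was read from 126 to 524 counts per library, Dnajb9 from 404 to 1490 and each of the other 8 genes from at least 1135. Per length of exon, Calr was the most abundant, with a median over 48 libraries of 81.8 reads scaled for exon length and depth (RPKM, range 54.3 to 137). Hsp90b1 and Hspa5 followed with medians of 62.8 and 60.1 RPKM and Pdia3 with 50.1, and the ranges of these 4 genes overlapped. Pdia4 had a median of 32.8, Xbp1 of 26.7 and Pdia6 of 26.2 RPKM, again with overlapping ranges. Dnajb11 at 11.05, Dnajb9 at 8.34 and Sdf2l1 at 4.42 RPKM were lowest. All other levels are counts scaled to the depth of the library (CPM), which compare 1 gene between libraries. In the GRCm38 annotation of RefSeq, Sdf2l1 spans chr16:17130138-17132383, Dnajb9 chr12:44205897-44210068 and Xbp1 chr11:5520641-5525993. Pdia3 spans chr2:121413902-121438687 and Pdia4 chr6:47796141-47813512. Gene counts do not tell the spliced from the unspliced form of Xbp1 mRNA, so its activation was not measured.

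In adult epidermis 8 of the 10 genes rose and fell over the day with a 24 h rhythm and were highest late in the night (adjusted p under 0.05, edgeR's quasi-likelihood test on a 24 h cosine with Benjamini-Hochberg adjustment). Among all genes tested 14.6% passed. Fitted peaks of the 8 genes lay between ZT21.0 and ZT22.5. Their amplitudes, the log2 distance from mean to peak, ran from 0.19 to 0.43, and the median over the 10 genes was 0.30 against 0.12 for all genes. Dnajb9 and Xbp1 did not pass, with adjusted p-values of 0.242 and 0.244.

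Hspa5, the chaperone at the centre of the group, showed adult levels of 208, 225, 181 and 191 CPM in the 4 libraries at ZT8, its lowest time, and of 377, 279, 372 and 375 CPM at ZT20. At ZT0 they were 399.6, 357, 272 and 324 CPM. Every adult library at ZT20 and at ZT0 was above every one at ZT8. Here and for the genes below, the times compared were picked for their levels. The share of all genes with times apart in this way was not computed. The fitted adult amplitude was 0.41 log2 with a peak at ZT21.0 (adjusted p = 0.000597, edgeR), and a least-squares cosine gave 0.40 ± 0.07 (SE, n = 24). In aged epidermis the ZT8 libraries held 263, 208, 292 and 214 CPM and the ZT20 libraries 195, 174, 389.5 and 368 CPM. These overlapped, since 2 of the aged ZT20 libraries were below all of the aged ZT8 libraries and the other 2 above them.

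Hsp90b1, which completes the folding of a narrower set of surface and secreted proteins, was at 212 ± 9.53 CPM (SD, n = 4) at ZT8 and 387 ± 37.9 CPM at ZT20 in adult libraries. Its amplitude was 0.38 log2 (adjusted p = 0.000131, edgeR). Calr went from 201 ± 25.1 CPM at ZT12 to 352 ± 43.99 CPM at ZT20, with an amplitude of 0.38 log2 (adjusted p = 5.26e-05, edgeR) and the latest peak of the 8, at ZT22.5. For both genes every adult ZT20 library was above every adult library at ZT8 and ZT12, times likewise picked for their levels. The isomerases followed the same course with amplitudes of 0.33 for Pdia6, 0.27 for Pdia4 and 0.22 log2 for Pdia3. Pdia6 rose from 89.1 ± 3.87 CPM at ZT12 to 143 ± 13.7 CPM at ZT20 and had the smallest adjusted p of the group, 4.27e-05 (edgeR).

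Of the partners of Hspa5, Dnajb11 had an adult amplitude of 0.19 log2 (adjusted p = 0.00119, edgeR), from 33.9 ± 4.43 CPM at ZT12 to 45.1 ± 3.28 CPM at ZT20. Sdf2l1, which is known to form a complex with Dnajb11, had the largest amplitude, 0.43 log2 (adjusted p = 0.0019, edgeR). Its adult libraries held 4.01, 4.94, 4.37 and 4.81 CPM at ZT12 and 10.8, 8.70, 9.14 and 10.5 CPM at ZT20, without overlap. Without the ZT20 libraries the rhythm of Sdf2l1 had an adjusted p of 0.0729 (edgeR). The other 7 genes still passed, as did 14.5% of all genes. Dnajb9, which is known to hold the stress sensor IRE1 inactive and to serve ER-associated degradation, was at 16.4 ± 5.39 CPM at ZT12 and 22.3 ± 0.88 CPM at ZT20. Xbp1 was at 84.4 ± 16.5 and 100.8 ± 8.34 CPM at these times, with libraries that overlapped.

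**Figure D2:**
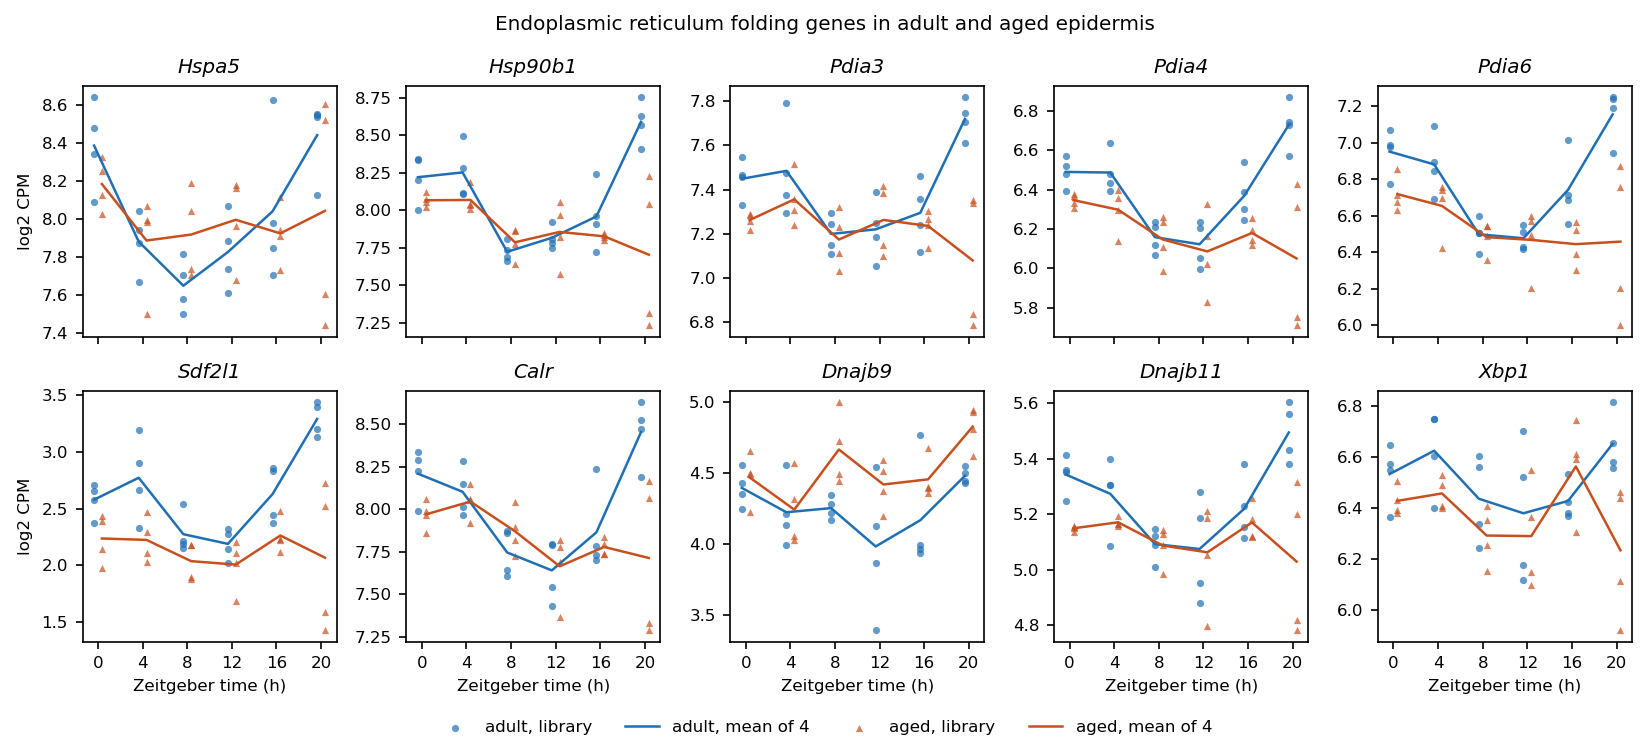
Levels of the 10 genes in log2 CPM (y axis, a separate scale for each gene) against Zeitgeber time in hours. Blue circles are adult and orange triangles aged libraries, 4 per age and time, and lines join the group means. Adult lines of all 10 genes have their lowest mean at ZT8 or ZT12 and their highest at ZT20, and at ZT20 the aged libraries split into 2 high and 2 low ones in every gene except Dnajb9.

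In aged epidermis none of the 10 genes passed the test of a 24 h rhythm in edgeR, against 5.87% of all genes. The same count of 0 came from DESeq2, against 7.95% of all genes. At an unadjusted p under 0.05 there were 2 (19.3% of all genes), Pdia6 and Calr, with adjusted p-values of 0.216 and 0.167. The median amplitude of the 10 genes was 0.11 log2 (0.10 over all genes). A least-squares cosine gave 0.09 ± 0.09 log2 (SE) for Hspa5, 0.14 ± 0.07 for Hsp90b1, 0.13 ± 0.06 for Pdia6 and 0.08 ± 0.09 for Sdf2l1. Without the aged ZT20 replicates 1 and 2, which stand apart from their group, Pdia4 (adjusted p = 0.0449) and Pdia6 (adjusted p = 0.0316) passed, as did 5.32% of all genes.

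The test of whether the 2 ages differ in rhythm was passed by 0 of the 10 genes and by 0% of all genes in edgeR. In DESeq2 none of the 10 passed either, against 0.188% of all genes. The unadjusted p was under 0.05 for 8 of the 10, all but Dnajb9 and Xbp1, against 7.35% of all genes. The smallest adjusted p was 0.236, for Calr, with an unadjusted p of 0.000773. A rhythm that passes in adult and does not pass in aged libraries is therefore not shown to differ between the ages here. A test of any difference among the 6 times, with no assumed shape, called 8 genes in adult libraries (16.8% of all genes) and none in aged libraries (8.44%) in edgeR. DESeq2 gave the same counts, against 23.7% of all genes in adult and 14.3% in aged libraries. Without the ZT20 libraries edgeR called 7 in adult libraries (12.8% of all genes), with Pdia3 lost at an adjusted p of 0.051. It still called none in aged libraries (3.98%). In edgeR the 0 in aged libraries became 7 without the aged ZT20 replicates 3 and 4, when 13.7% of all genes passed. It stayed 0 without replicates 1 and 2 (5.26%). At an unadjusted p under 0.05 the aged libraries gave 1, against 26.5% of all genes. A 12 h component beside the 24 h one was called for none of the 10 genes in adult or aged libraries, against 0.15% and 0.0111% of all genes. Unadjusted p-values were under 0.05 for 1 gene in adult and 2 in aged libraries (10.8% and 21.5% of all genes), and DESeq2 called Dnajb9 in aged libraries (adjusted p = 0.0457), where it called 3.86% of all genes.

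**Figure D3:**
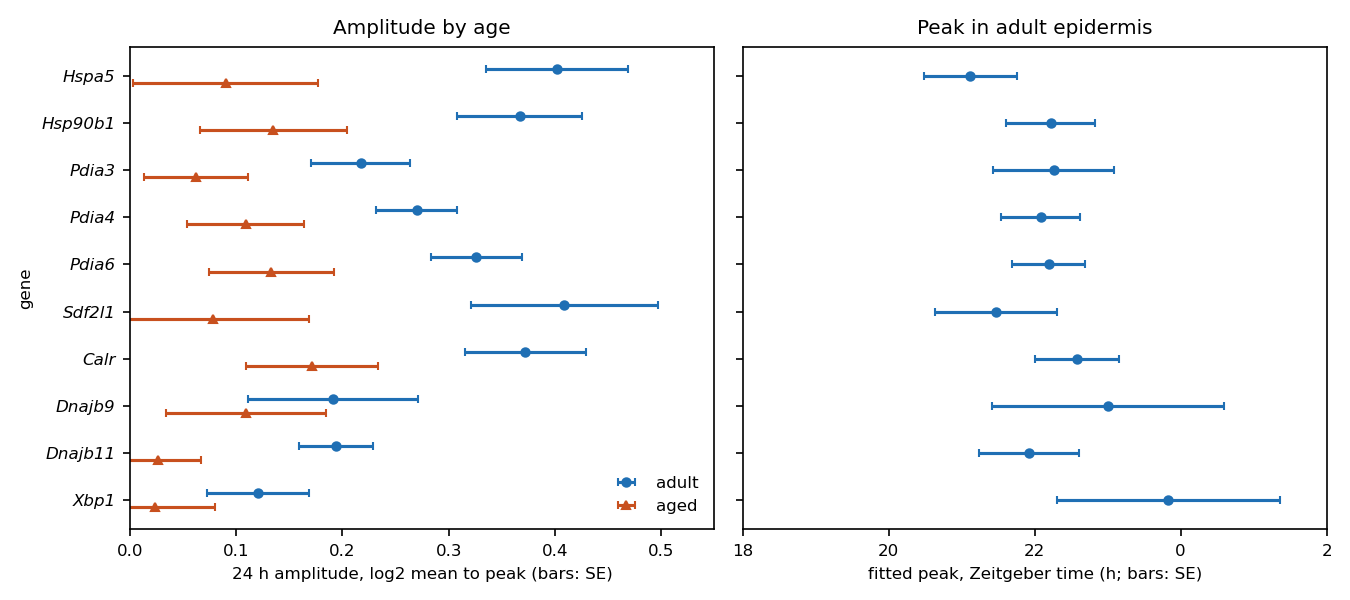
Left, the 24 h amplitude of each gene in log2 from mean to peak by a least-squares cosine, in adult (blue circles) and aged (orange triangles) libraries, n = 24 each, with bars of 1 SE that stop at 0. Right, the fitted peak in adult libraries as Zeitgeber time in hours with its SE; the amplitude was larger in adult than in aged libraries for all 10 genes, with 0.40 ± 0.07 against 0.09 ± 0.09 in Hspa5 and 0.19 ± 0.08 against 0.11 ± 0.07 in Dnajb9.

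Averaged over the 6 times, 8 of the 10 genes were lower and 1 was higher in aged epidermis (adjusted p under 0.05, edgeR's quasi-likelihood test). Among all genes tested 33.1% passed this test, 16.2% lower and 17% higher in aged libraries. The median log2 fold change of the 10 genes was -0.16, against 0.01 for all genes. Sdf2l1 fell the most, Dnajb9 rose, and Hspa5 did not pass.

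Sdf2l1 had adult levels of 4.01 to 10.8 CPM with a median of 5.85 (n = 24) and aged levels of 2.65 to 6.57 CPM with a median of 4.44 (n = 24). It fell with age by 0.47 (SE 0.08, adjusted p = 1.4e-05) on the log2 scale, so that its level fell by 27.9%. In each of the isomerases the ranges of the 2 ages overlapped. Pdia6 ran over 83.7 to 152 CPM with a median of 107 in adult and 64.01 to 117 CPM with a median of 94.03 in aged libraries and fell by 0.24 (SE 0.05, adjusted p = 0.000357). Pdia4 fell by 0.20 (SE 0.04, adjusted p = 0.000545), with medians of 83.9 CPM in adult and 75.9 CPM in aged libraries, and Pdia3 fell by 0.16 (SE 0.04, adjusted p = 0.00328).

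Among the chaperones, Hsp90b1 had 203 to 431 CPM with a median of 266 in adult and 151 to 299.6 CPM with a median of 242 in aged libraries and fell by 0.20 (SE 0.05, adjusted p = 0.00488). Calr fell by 0.16 (SE 0.06, adjusted p = 0.0298) and Dnajb11 by 0.14 (SE 0.04, adjusted p = 0.00489). Hspa5 had medians of 249 CPM in adult and 258 CPM in aged libraries, and its log2 fold change was -0.04 (SE 0.08, adjusted p = 0.755). That this did not pass does not show that Hspa5 was the same at both ages. Xbp1 fell by 0.13 (SE 0.05, adjusted p = 0.0286), a call that was lost when any 1 of 3 libraries was left out, aged ZT16 replicate 4, aged ZT20 replicate 1 or adult ZT12 replicate 3, with adjusted p-values of up to 0.0576.

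Dnajb9 went the other way. Its levels were 10.5 to 27.3 CPM with a median of 19.1 in adult and 16.3 to 31.9 CPM with a median of 22.5 in aged libraries, with overlap, and it rose by 0.25 (SE 0.07, adjusted p = 0.00486), or by 19.1%. The rise passed without any 1 of the 48 libraries, with adjusted p-values up to 0.00922, and without all ZT20 libraries (log2 fold change 0.23, SE 0.08, adjusted p = 0.0408). At ZT8 every aged library, with 26.4, 21.8, 31.9 and 22.5 CPM, was above every adult library, with 17.9, 20.2, 18.6 and 19.4 CPM. That held for 5.54% of all genes at ZT8, and the log2 difference of 0.43 there did not pass (adjusted p = 0.157, edgeR).

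At ZT20 alone 8 of the 10 genes passed and all 8 were lower in aged epidermis (edgeR). Of all genes 20% passed at ZT20, 10.5% as lower and 9.54% as higher in aged libraries. The median log2 fold change was -0.63 for the 10 genes and 0.02 for all genes. In each of the 8 genes every aged library was below every adult library, as it was for 13.7% of all genes.

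Sdf2l1 showed 10.8, 8.70, 9.14 and 10.5 CPM in the 4 adult and 2.65, 2.97, 5.71 and 6.57 CPM in the 4 aged libraries at ZT20, in replicate order. It fell by 1.12 (SE 0.19, adjusted p = 0.000124) on the log2 scale. Hsp90b1 showed 431, 339.7, 379 and 396 CPM in adult and 159, 151, 264 and 299.6 CPM in aged libraries and fell by 0.82 (SE 0.13, adjusted p = 9.2e-05). For both genes the aged replicates 1 and 2 were far below the aged replicates 3 and 4, and all 4 lay below the adult libraries.

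Calr, at 355, 292, 368 and 395 CPM in adult and 161, 156, 268 and 287 CPM in aged libraries, fell by 0.69 (SE 0.14, adjusted p = 0.00093), and its highest aged library lay just under its lowest adult one. Pdia3 showed 226, 196, 209 and 214 CPM in adult and 114, 110.2, 163 and 162 CPM in aged libraries, a fall of 0.62 (SE 0.11, adjusted p = 0.000131). Pdia4 showed 117, 94.98, 107 and 106 CPM in adult and 53.8, 52.4, 79.4 and 85.9 CPM in aged libraries, a fall of 0.65 (SE 0.11, adjusted p = 0.000103). The third isomerase, Pdia6, fell by 0.66 (SE 0.12, adjusted p = 0.000404), from 143 ± 13.7 CPM (SD, n = 4) to 90.7 ± 25.8 CPM. In the isomerases too, aged replicates 1 and 2 were the low pair.

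Dnajb11 had 48.6, 41.7, 43.1 and 47.2 CPM in adult and 28.2, 27.4, 39.8 and 36.7 CPM in aged libraries and fell by 0.45 (SE 0.09, adjusted p = 0.000978). Xbp1 had 113, 100.8, 94.1 and 95.8 CPM in adult and 60.5, 69.2, 88.1 and 86.8 CPM in aged libraries and fell by 0.40 (SE 0.12, adjusted p = 0.013). The Xbp1 call at ZT20 was lost without aged replicate 1, aged replicate 2 or adult replicate 1, with adjusted p-values of up to 0.0882. For Hspa5 the aged libraries held 195, 174, 389.5 and 368 CPM and the adult ones 377, 279, 372 and 375 CPM, so that 2 aged libraries lay below all adult ones and 2 among or above them. Its log2 fold change was -0.32 (SE 0.19, adjusted p = 0.233). Dnajb9 was at 21.5, 21.7, 22.6 and 23.4 CPM in adult and 30.7, 28.1, 30.5 and 24.5 CPM in aged libraries, every aged library above every adult one, as for 12.3% of all genes. Its log2 fold change of 0.35 (SE 0.17, adjusted p = 0.128) did not pass in the fit of all 48 libraries. In a fit of only the ZT20 libraries Dnajb9 passed (0.34, SE 0.08, adjusted p = 0.017, edgeR), as did 22.7% of all genes.

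The aged ZT20 libraries thus held a low pair, replicates 1 and 2, and a higher pair, replicates 3 and 4. The mean over the 10 genes of centred log2 CPM was -0.44 and -0.48 in the first pair, 0.18 and 0.20 in the second, and between 0.29 and 0.54 in the 4 adult ZT20 libraries. Without the low pair the share of all genes that passed at ZT20 went from 20% to 2.53%. Of the 10 genes 3 then passed, Hsp90b1 (-0.46, adjusted p = 0.0306), Pdia4 (-0.36, adjusted p = 0.0375) and Sdf2l1 (-0.67, adjusted p = 0.0372). Pdia3 then had -0.38 (adjusted p = 0.0534), Pdia6 -0.35 (adjusted p = 0.0786) and Calr -0.35 (adjusted p = 0.135). Hspa5 changed sign to 0.11 (SE 0.19), while without the higher pair it was -0.93 (adjusted p = 0.00065). Without the higher pair 9 of the 10 genes passed at ZT20 in edgeR, all 9 lower, as did 23.1% of all genes. Each of these fits leaves only a pair of aged libraries at ZT20. Leaving out the low pair kept 7 of the 9 calls over all times, with those of Calr (adjusted p = 0.0876) and Xbp1 (adjusted p = 0.0931) lost, and 29.4% of all genes passed in place of 33.1%. Leaving out all ZT20 libraries kept 4, Sdf2l1 (-0.34), Pdia6 (-0.16), Pdia4 (-0.11) and Dnajb9 (0.23), and 19.3% of all genes passed.

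**Figure D4:**
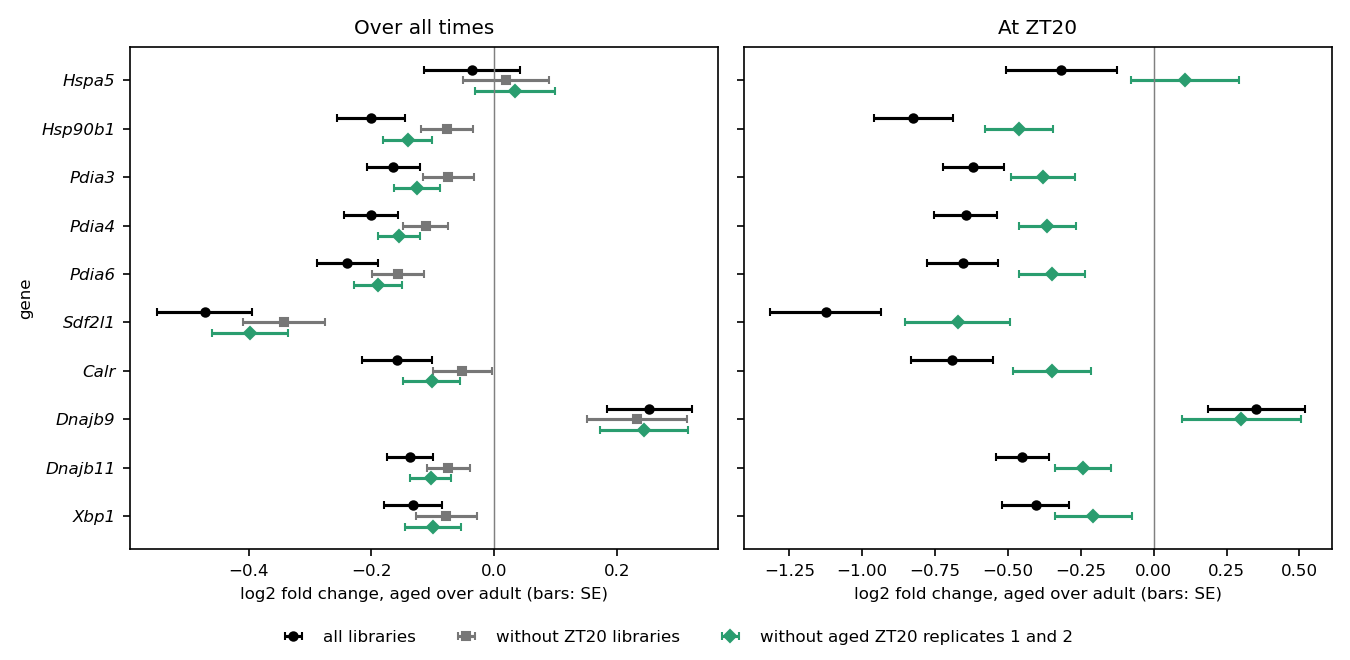
Log2 fold changes of aged over adult libraries (x axis) with bars of 1 SE for the 10 genes, over all times on the left and at ZT20 on the right. Black circles use all libraries, grey squares leave out ZT20 and green diamonds leave out the aged ZT20 replicates 1 and 2; Sdf2l1 stays the lowest gene in each fit, and Hsp90b1 at ZT20 moves from -0.82 to -0.46.

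At the other times none of the 10 genes passed in edgeR or in DESeq2. Of all genes 4.46% passed in edgeR at ZT0, 0.632% at ZT4, 2.19% at ZT8, 1.1% at ZT12 and 1.97% at ZT16. In DESeq2 these shares were 6.53%, 0.981%, 3.31%, 1.93% and 3.82%. At each of these times 1 of the 10 had an unadjusted p under 0.05 in edgeR. The share of all genes at that level was not computed. At ZT0 the log2 fold change was negative for 9 of the 10. Every aged library there was below every adult one for Pdia3, Pdia4 and Dnajb11 (8.92% of all genes). Dnajb11 for example had 41.03, 42.6, 37.9 and 40.8 CPM in adult and 35.5, 35.6, 35.6 and 35.1 CPM in aged libraries at ZT0, a difference of -0.20 (SE 0.09, adjusted p = 0.211) on the log2 scale. The median log2 fold change of the 10 genes was -0.01 at ZT8 and 0.01 at ZT12. At ZT12 Pdia6, for one, was at 89.1 ± 3.87 CPM (SD, n = 4) in adult and 88.97 ± 10.7 CPM in aged libraries.

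Whether the age difference itself changed with the time of day (age by time) was tested jointly over the 6 times. None of the 10 genes passed in edgeR, against 0.283% of all genes. Hsp90b1 came nearest with an adjusted p of 0.0658, and 7 genes had an unadjusted p under 0.05, against 17.1% of all genes. DESeq2 called 4, Hsp90b1 (adjusted p = 0.0055), Pdia3 (0.0155), Pdia4 (0.0226) and Calr (0.0345), and 3.67% of all genes. The count in edgeR depended on single libraries and reached 6 without aged ZT20 replicate 4, when 1.48% of all genes passed. It stayed 0 without the aged ZT20 replicates 1 and 2 (0.071% of all genes) and without all ZT20 libraries (0.0669%). The calls at ZT20 alone therefore do not show that the age difference was larger there than at other times.

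**Figure D5:**
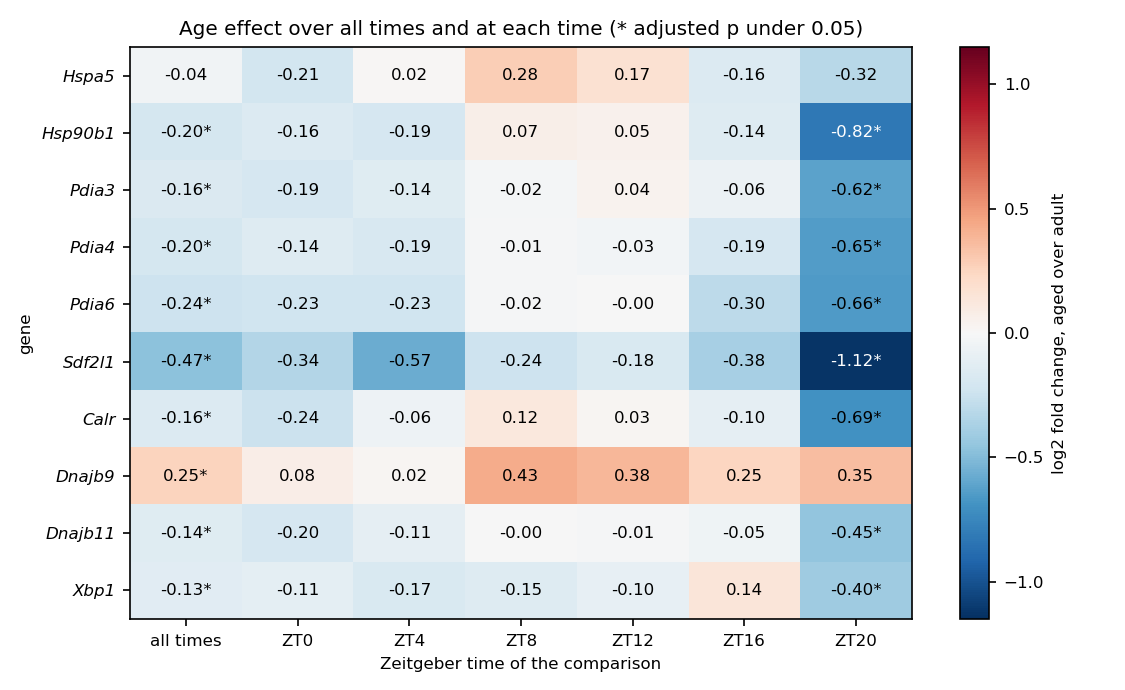
Log2 fold change of aged over adult libraries for each of the 10 genes (rows) over all times and at each Zeitgeber time in hours (columns), with blue for lower and red for higher in aged libraries. Stars mark an adjusted p under 0.05 in edgeR; at single times stars stand only at ZT20, for 8 genes, from -0.40 in Xbp1 to -1.12 in Sdf2l1.

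Differences between libraries of the same age and time were also shared among most of these genes. The share of all genes that deviate together with Hspa5 was not computed, so this is not shown to be particular to the set. Each library's deviation from its group mean in log2 CPM was compared between Hspa5 and the other 9 genes (48 libraries, 100000 permutations within groups, two-sided, adjusted over the 9 relations). Pearson's r with Hspa5 was 0.89 for Pdia6 (Spearman's rho 0.81, adjusted permutation p = 9e-05 for each). It was 0.80 for Calr (rho 0.67), 0.79 for Hsp90b1 (rho 0.63), 0.72 for Pdia4 (rho 0.55) and 0.65 for Sdf2l1 (rho 0.52), with adjusted permutation p-values of r from 0.00027 to 0.00374. Dnajb11 (r = 0.59) and Dnajb9 (r = 0.49) passed too, with adjusted permutation p-values of 0.00946 and 0.00252. Xbp1 did not (r = 0.25, rho = 0.15, adjusted permutation p = 0.218), and Pdia3 passed for r (0.51, adjusted permutation p = 0.0435) but not for rho (0.31, adjusted permutation p = 0.113).

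Without the 2 libraries farthest from the median of Hspa5, r was 0.86 for Pdia6, 0.74 for Calr, 0.74 for Hsp90b1, 0.66 for Pdia4, 0.61 for Sdf2l1, 0.50 for Dnajb11, 0.44 for Dnajb9, 0.41 for Pdia3 and 0.20 for Xbp1. Without the 4 aged ZT20 libraries, whose pairs lie far apart, it was 0.82 for Pdia6, 0.69 for Dnajb9, 0.66 for Calr, 0.65 for Hsp90b1, 0.52 for Pdia4, 0.42 for Sdf2l1, 0.35 for Dnajb11, 0.22 for Pdia3 and -0.01 for Xbp1. Dnajb9 thus moved with Hspa5 from library to library although its difference with age had the opposite sign to that of the other called genes. Levels within a library share its depth and its cell makeup.

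Over all 48 libraries, the genes outside the set whose log2 CPM was most like the mean of the 10 were Manf (Pearson's r = 0.92), a secreted ER stress protein, Stip1 (0.92), which couples cytosolic HSP70 to HSP90, and Ahsa1 (0.89), an activator of HSP90. Nudc (a cochaperone of HSP90), Creld2 (an ER protein raised by ER stress), St13 (a cochaperone of HSP70), Rpn1 (a subunit of the oligosaccharyl transferase), Cacybp, Dnajc3 (a J-domain partner of Hspa5) and Morf4l2 followed, with r from 0.88 to 0.84. These values describe likeness over libraries that share age and time. Since these genes were picked for that likeness, their own values are a description with no test. Manf had a fitted adult peak at ZT21.8 with an amplitude of 0.26 log2, and Stip1 one at ZT21.2 with an amplitude of 0.35 log2.

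Other genes of the ER were counted from lists named by function, with up to 4 genes named for each by the smallest p for age. Beside these counts, 16.2% of all genes were lower and 17% higher over all times, and 14.6% were rhythmic in adult and 5.87% in aged libraries. Of 13 other ER chaperones and cochaperones, 7 were lower and none higher in aged epidermis over all times (edgeR). Cnpy2 and Cnpy3, which assist the folding of surface receptors, fell by 0.17 (SE 0.04) and 0.12 (SE 0.03), Hyou1, an exchange factor for Hspa5, by 0.20 (SE 0.06) and Sdf2, the relative of Sdf2l1, by 0.14 (SE 0.04). In that list 6 of 13 were rhythmic in adult libraries, all 6 with a peak between ZT18 and ZT24, and 2 in aged libraries, which became 4 and 0 without the ZT20 libraries. Of 16 other disulfide and prolyl isomerases, 7 were lower and 1 higher, among them Erp29, a folding factor related to the isomerases, with a fall of 0.22 (SE 0.04, adjusted p = 7.87e-06). P4hb, the founding disulfide isomerase, fell by 0.18 (SE 0.03), Txndc5 by 0.14 (SE 0.03) and the prolyl isomerase Ppib by 0.15 (SE 0.04). Of these 16, 3 were rhythmic in adult libraries, a share near that of all genes.

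Among the sensors of unfolded protein and the proteases that activate them, 4 of 8 genes were lower and none higher with age. These were Atf6, with a fall of 0.09 (SE 0.02), its relative Atf6b with 0.17 (SE 0.04), and Creb3l1 and Creb3l2, transcription factors held in the ER membrane, with 0.43 (SE 0.10) and 0.13 (SE 0.04). Of 16 genes of ER-associated degradation 5 were lower, including the extraction ATPase Vcp (0.15, SE 0.03), the channel genes Derl1 (0.09) and Derl2 (0.09) and Selenos (0.11). Of 22 genes of the translocon, signal peptidase and oligosaccharyl transferase 12 were lower, with falls of 0.17 for the signal peptidase subunit Spcs2, 0.17 for Ssr2, 0.14 for Rpn1 and 0.12 for Ddost. Of 15 genes of export and retrieval 9 were lower, among them the receptors that return resident proteins to the ER, Kdelr2 (0.15) and Kdelr1 (0.12), the cargo receptor Tmed10 (0.11) and the coat subunit Sec23b (0.15). No gene of these 3 lists was higher. The list medians ran from -0.06 to -0.12 log2 for these 6 ER lists, nearer to 0 than the -0.16 of the 10 folding genes, and no test of that difference was made.

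The integrated stress response, a related programme that also answers to ER stress through the kinase PERK, was split. Of its 15 genes 4 were lower and 4 higher with age, against 16.2% and 17% of all genes. Atf4, its main transcription factor, rose by 0.28 (SE 0.06, adjusted p = 0.000558) and Atf3 by 0.74 (SE 0.18), while Cebpb fell by 0.30 (SE 0.06) and Chac1, which breaks down glutathione, by 0.93 (SE 0.21). The cytosolic counterparts of the folding genes, the HSP90 and HSP70 machinery, counted 8 of 15 lower and 1 higher. The HSP90 partners Fkbp4 and Ahsa1 fell by 0.27 (SE 0.04) and 0.22 (SE 0.04), the inducible HSP70 gene Hspa1a by 0.27 (SE 0.06) and Hsp90ab1 by 0.12 (SE 0.03). In this list 12 of 15 were rhythmic in adult libraries, all with a peak between ZT18 and ZT24, and 0 in aged libraries. Without the ZT20 libraries 7 of 15 were rhythmic in adult libraries, and 14.5% of all genes. The summed level at ZT20 was 4628, 4435, 4627 and 5015 CPM in adult and 3336, 3115, 4464 and 4172 CPM in aged libraries, so that the aged replicates 1 and 2 were the low pair here as well.

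These counts depended on ZT20 too. At ZT20 itself 7 of 13 other chaperones, 6 of 16 other isomerases, 2 of 8 sensors, 3 of 16 degradation genes, 8 of 22 translocon genes, 7 of 15 export genes and 10 of 15 cytosolic chaperone genes were lower and none of them higher, against 10.5% of all genes lower. Without the aged ZT20 replicates 1 and 2 these became 1, 0, 0, 0, 1, 0 and 5, when 2.53% of all genes passed in either direction. Over all times and without the ZT20 libraries, 2 of 13 other chaperones, 5 of 16 other isomerases, 4 of 8 sensors, 1 of 16 degradation genes, 5 of 22 translocon genes, 6 of 15 export genes and 3 of 15 cytosolic chaperone genes were lower, when 19.3% of all genes passed in either direction. In the integrated stress response 1 of 15 genes was lower and 3 higher at ZT20, and 0 passed there without the low pair. Without the ZT20 libraries 3 of them were lower and 3 higher over all times.

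Some markers of cell types and of tissue handling also differed between the ages at ZT20, where 10.5% of all genes were lower and 9.54% higher. Of 12 markers of differentiated keratinocytes 8 were lower and 1 higher in aged libraries at ZT20, and their summed level was 10130 to 15360 CPM in adult and 7527 to 8317 CPM in aged libraries. Of 10 hair follicle markers 5 were lower (summed level 2555 to 3074 against 1390 to 2290 CPM), and of 8 basal keratinocyte markers 2 were higher (11200 to 13430 against 14120 to 15880 CPM). Of 21 immediate early and dissociation genes 11 were higher and 2 lower (5822 to 11170 against 10970 to 14640 CPM). That list shares Atf3 with the integrated stress response and Hspa1a and Hspa1b with the cytosolic machinery. Within the aged ZT20 libraries the differentiated keratinocyte sums were 7527 and 8069 CPM in the low pair and 8317 and 8199 CPM in the higher pair. The hair follicle sums were 1596 and 1390 CPM against 2290 and 2013, and the immediate early sums 12540 and 10970 CPM against 14640 and 14070. Adult ZT20 replicates 1 and 2 also had lower immediate early sums, 5822 and 6737 CPM, than replicates 3 and 4, 10650 and 11170 CPM. In these adult pairs the hair follicle sums were 2723 and 2555 CPM against 3074 and 2824. The differentiated sums were 13750 and 15360 CPM against 10130 and 11980, and those of the folding genes 1849 and 1497 CPM against 1750 and 1815. Over all times, where 16.2% of all genes were lower and 17% higher, 7 of the 12 differentiated markers were lower and 2 higher, 6 of the 10 hair follicle markers were lower, 2 of the 8 basal markers were higher, and 14 of the 21 immediate early genes were higher and 2 lower. Without ZT20 these became 3 lower and 2 higher, 6 lower, 2 higher, and 8 higher and 1 lower. The part of these lists in the results on the folding genes was not tested, and in bulk RNA fewer cells of a type and less RNA per cell cannot be told apart.

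The label of epidermis matched the markers. Krt5 and Krt14 of basal cells averaged 3039 and 2652 CPM and Krt10 of differentiated cells 4204 CPM, against 2.32 CPM for the fibroblast gene Col1a1 and 0.51 CPM for the endothelial gene Pecam1. Plasma cells, which are rich in ER folding proteins, had defining markers near 0. Jchain averaged 0.16, Mzb1 0.65 and Cd79a 0.15 CPM, while Ms4a1, Cd79b and Tnfrsf17 did not pass the filter on low counts. The exception was Sdc1 at 713 CPM, a gene that keratinocytes also express. Through Sdc1 the list of B and plasma cells summed at ZT20 to 739 to 864 CPM in adult and 495 to 583 CPM in aged libraries, without overlap, and its part in the results was not tested. Lists of other cell types summed at ZT20 to 178 to 352 CPM in adult and 196 to 464 CPM in aged libraries for Langerhans cells, and to 8.16 to 22.2 against 21.6 to 37.2 CPM for macrophages. The sums were 29.3 to 60.4 against 48.1 to 84.3 CPM for T cells, 1115 to 1360 against 1193 to 1575 CPM for sebocytes and 57.7 to 72.8 against 64.3 to 74.7 CPM for melanocytes. They were 26.6 to 49.6 against 29.3 to 62.5 CPM for dermal fibroblasts and 2.14 to 3.20 against 2.40 to 4.13 CPM for endothelial cells. The ranges of the 2 ages overlapped at ZT20 in each of these lists of other cell types. Of single markers, 2 of 7 tested for macrophages and 1 of 8 for T cells were higher in aged libraries at ZT20 and none lower (9.54% of all genes higher). At ZT0, picked for its levels, the Langerhans sums were 293.3 to 543.3 CPM in adult and 204.7 to 274.5 CPM in aged libraries, without overlap. The part of these lists in the results was not tested. Total counts per library ran from 40761084 to 49229498. The mitochondrial ribosomal RNA mt-Rnr2 took 12.9% to 24.9% of counts in adult and 12.9% to 21.1% in aged libraries.

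Some of the genes overlap another gene in the annotation, and whether the counting used strand is not given in the sources used here. Hspa5 overlaps Rabepk, Pdia3 overlaps Catsper2, Pdia4 overlaps the microRNA gene Mir704, Pdia6 overlaps Atp6v1c2 and Dnajb11 overlaps the noncoding Gm30505. Over the 48 libraries Rabepk held 20750 counts against 579750 for Hspa5, Catsper2 5945 against 348273 for Pdia3, Mir704 9999 against 172137 for Pdia4, and Atp6v1c2 112612 against 224296 for Pdia6. Reads in the shared bases could be given to either gene or to none.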

How the data were processed

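Gene expression was measured by RNA sequencing of total RNA from epidermal cell suspensions, made into stranded libraries with removal of ribosomal RNA, per the labels' protocols. The authors deposited raw counts per Entrez gene. The submitters' processing notes name Trim Galore, STAR 2.7.10a, featureCounts and the build mm10 (GRCm38), and the sources used here give neither strand setting nor annotation. RefSeq symbols of GRCm38 named 23476 of the 24996 identifiers, and the rest held 3.66% of counts.

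All genes were fitted in edgeR 4.0.16 (R 4.3.3), with its filter on low counts (minimum count 10, minimum total 15), trimmed mean of M values scaling and robust quasi-likelihood fits. A model of the 12 group means (residual degrees of freedom 36) gave the age effects, age by time and any difference among times. Others had a 24 h cosine per age (42) and 24 h and 12 h terms (38). P-values are two-sided, adjusted by Benjamini-Hochberg over 18044 genes, and a call is an adjusted p under 0.05. Log2 CPM used a prior count of 2. RPKM used exon lengths of GENCODE M21. Least-squares cosines on log2 CPM gave amplitudes with SE. The tests of age over all times, of age at ZT20 and of the 24 h rhythm in edgeR were first run on simulated data. The other tests were not.

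The 10 genes are always named, with up to 4 per other pathway list (smallest p for age) and the 10 genes most like the mean of the set (predicted genes left out). Cell type genes printed singly were chosen after their values were seen. The members and lists were chosen with earlier results of these data known. Alternatives were DESeq2 1.42.0, its size factors in edgeR, no filter, a stricter filter (1 CPM in 24 libraries), a threshold of 0.01, the replicate block, fits without ZT20 or without the aged ZT20 replicates 1 and 2, and leaving out each library. Rhythm fits without ZT20 and fits without the aged ZT20 replicates 3 and 4 were added after seeing the data. No libraries were duplicates: replicate pairs differed by at least 9.84 times sampling noise (chi-square per degree of freedom, 72 pairs). Permutations and figures used Python 3.11.15, scipy 1.17.1 and matplotlib 3.10.9.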

Additional observations from a re-analysis of the deposited data

Results flagged for a closer look

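Each of the 120 sets of 4 libraries (10 genes, 12 groups) was searched for a library far from the other 3 by Dixon's ratio at its 95% critical value, and 6 had one, where chance gives about 1 in 20 sets. In adult ZT16 replicate 4, Calr was at 301.77 CPM (others 208 to 220.1) and Dnajb9 at 27.28 CPM (others 15.3 to 15.9), both high. Dnajb9 was also high in aged ZT16 replicate 4, at 25.5 CPM against 20.5 to 21.1. In adult ZT20 replicate 2, Hspa5 was low at 279.27 CPM against 372 to 377. Sdf2l1 was high in adult ZT8 replicate 1 (5.77 CPM, others 4.42 to 4.61), and Dnajb11 was slightly high in aged ZT4 replicate 1 (36.59 CPM, others 35.7 to 35.8). The split of the aged ZT20 libraries into pairs is not of this kind, since no single library there is far from the rest.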

How the results depend on the processing

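Counts of the 10 genes called were recomputed under each alternative. Over all times 9 genes became 4 without the ZT20 libraries (33.1% and 19.3% of all genes), and at ZT20 8 became 3 without the aged ZT20 replicates 1 and 2 (20% and 2.53% of all genes). The count for a rhythm in aged libraries went from 0 to 2 without that pair (5.87% and 5.32% of all genes). The count for any difference among times in aged libraries went from 0 to 7 without aged ZT20 replicates 3 and 4 (8.44% and 13.7% of all genes). DESeq2 gave 4 in place of 0 for age by time (3.67% of all genes against 0.283%) and 1 in place of 0 for the 12 h component in aged libraries (3.86% against 0.0111%). A fit of only the ZT20 libraries gave 9 in place of 8 at ZT20, 8 lower and 1 higher (22.7% of all genes against 20%). Leaving out each of 48 libraries in turn gave 8 to 9 over all times, 7 to 8 at ZT20, 0 to 1 at ZT12 (without adult ZT12 replicate 1, Dnajb9 passed with an adjusted p of 0.0274), 0 to 6 for age by time, 0 to 1 for the 12 h component in aged libraries (without aged ZT4 replicate 1) and 0 to 1 for any difference among times in aged libraries (without aged ZT20 replicate 4). Adult rhythm stayed at 8 without any single library. Of 1130 results of single genes under the other alternatives, 1097 kept direction and call, 17 lost and 16 gained the call, and 0 changed sign while called. The cause of these changes was not tested.

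The replicate block gave the same counts, 9 over all times and 8 at ZT20, and changed no call. It fits the same shift for a replicate number at all times, so it cannot take up a split at ZT20 alone. The numbers share no source in the labels: over 24 pairs of aged and adult libraries with the same time and number, deviations correlated with r from -0.601 to 0.575 (median 0.073). Depth limits Sdf2l1 most, at 126 counts in its lowest library.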
